A study of Mus musculus with 8 samples.

Results

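The enzymes described here conjugate drugs, hormones, bilirubin and reactive lipids: the glutathione transferases (Gst, with the membrane-bound Mgst), the sulfotransferases (Sult) and the UDP-glucuronosyltransferases (Ugt). Members were the genes whose name in the scanner files begins with one of these family roots, followed by a class letter or number. Genes listed there under other names fell outside the rule: Gstp3, Sult2a2, Sult2a7, Sult2a8, Sult3a2 and Sult6b1. The families as counted here are therefore not complete. That rule found 47 genes of 27597 on the arrays, 23 Gst, 10 Sult and 14 Ugt. Of these, 44 had a probe that was well above background in both replicates of some group (22 Gst, 9 Sult, 13 Ugt), out of 17050 genes kept in all. Gstt4, Sult2b1 and Ugt8a did not pass. A second probe was kept for Gsta3, Gstm1, Gstm7, Gstp1, Mgst1, Mgst3, Sult1b1, Ugt1a@, Ugt2a1, Ugt2b37 and Ugt3a2. The results of every other member kept rest on 1 probe.

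Liver RNA was hybridised from 4 groups with 2 arrays each: KKAy mice at 11 weeks, C57BL/6J mice at 11 weeks, KKAy mice at 4 weeks and C57BL/6J mice at 4 weeks. The KKAy mouse is an obese, diabetes-prone line that carries the yellow allele Ay of the agouti gene on the KK background, and the labels give its state as diabetic. C57BL/6J is a standard inbred strain, labelled normal. The allele and the strain background cannot be told apart in this design. All mice ate standard chow and had been fasted for 13.5 hours, and no label gives their sex. The labels do not say that the 2 samples of a group were separate animals, so p-values measure the spread between samples, which may be technical.

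Conjugation makes a compound more water-soluble and readies it for export into bile or blood. Glutathione transferases couple glutathione to electrophiles, sulfotransferases move a sulfate group from the donor PAPS, and UDP-glucuronosyltransferases move glucuronic acid from UDP-glucuronate. The liver is the main site of all of these reactions in the body, and many of the genes differ between male and female mice or respond to foreign compounds through receptors such as CAR, PXR, AhR and the factor Nrf2.

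Values below are log2 processed signal relative to the 75th percentile of the array, so levels can be compared between arrays for 1 probe but not between probes. The 75th percentile lay between 491.6 and 1241 fluorescence units. Between 56.3% and 66.7% of spots exceeded background by the scanner's criterion. The slide that held the 11-week arrays held no 4-week array, which makes slide and age inseparable here. On both slides C57BL/6J had positions 1 and 2 and KKAy positions 3 and 4. The hepatocyte genes Alb, Apoa1 and Ttr ranked at or above percentile 86.3 of all genes on every array. KKAy livers had lower levels of 8 of 11 Kupffer cell and macrophage markers at 11 weeks and of 9 at 4 weeks. Their summed level was 5.34 to 5.40 in KKAy and 6.12 to 6.24 in C57BL/6J livers at 11 weeks, and 6.06 to 6.23 in KKAy and 7.35 to 7.58 in C57BL/6J livers at 4 weeks. Lymphocyte markers were lower in KKAy for 5 of 8 at each age, and stellate cell and fibroblast markers for 5 of 9 at 11 weeks and 3 at 4 weeks. Another stellate cell and fibroblast marker, 1 of the 9, was higher at 11 weeks. Of all genes, 11.7% were lower in KKAy at 11 weeks and 8.92% at 4 weeks (limma, adjusted p under 0.05). The summed hepatocyte markers lay at 10.92 to 10.95 in KKAy and 11.12 to 11.18 in C57BL/6J livers at 11 weeks, and at 10.79 to 10.90 in KKAy and 10.67 to 10.98 in C57BL/6J livers at 4 weeks. Singly they went both ways. Of 9 hepatocyte markers 3 were lower and 2 higher in KKAy at 11 weeks, and 1 was lower at 4 weeks. At 11 weeks Apoa1, Cps1 and Tat were lower (log2 -1.04, -0.92 and -0.87), and Apoc3 was among the higher ones (0.60). Of all genes, 9.81% were higher at 11 weeks and 6.5% at 4 weeks. The part of these shifts in the enzyme results was not tested. In bulk tissue, fewer cells of a type and less RNA per cell cannot be told apart.

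The strain comparison asks which conjugating enzymes differed between diabetic and normal liver. At 11 weeks 20 of 44 members passed an adjusted p of 0.05 (limma, Benjamini-Hochberg over all genes), 13 higher and 7 lower in KKAy. That is 45.5% of members, where 21.5% of all genes passed (9.81% higher, 11.7% lower). At 4 weeks 6 of 44 members passed, or 13.6%, against 15.4% of all genes (6.5% higher, 8.92% lower). All 6 were higher in KKAy. None was lower past that threshold, and 5 were lower at an unadjusted p under 0.05. The share of all genes at the unadjusted threshold was not counted, so counts at it are descriptions only, here and below. The median difference of the members was 0.32 at 11 weeks and 0.07 at 4 weeks, beside -0.01 and 0.02 for all genes. Scaled on the spike-in probes, the median of all genes was 0.13 at 11 weeks and 0.37 at 4 weeks. Members past the threshold then numbered 13 higher and 6 lower at 11 weeks and 9 higher and 0 lower at 4 weeks. Quantile normalization gave 11 higher and 9 lower at 11 weeks and 8 higher and 2 lower at 4 weeks. The median difference of the members under it was 0.18 at 11 weeks and 0.04 at 4 weeks. Without either C57BL/6J array of 11 weeks the count of 20 dropped to 8. With no filter on dim probes the count of 20 became 12, with the calls of Gsta1, Gstm5, Gsto2, Sult1b1, Ugt2b1, Ugt2b35, Ugt2b37 and Ugt2b38 lost.

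Arrays with the same replicate number deviated together in all 6 pairs of groups. With the replicate number as a block, 36 of 44 members passed at 11 weeks (27 higher, 9 lower) where 55.1% of all genes did, and 17 at 4 weeks (10 higher, 7 lower) where 44% did. Every call made without the block was also made with it. Members that passed only with the block are named below at their results.

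**Figure D1:**
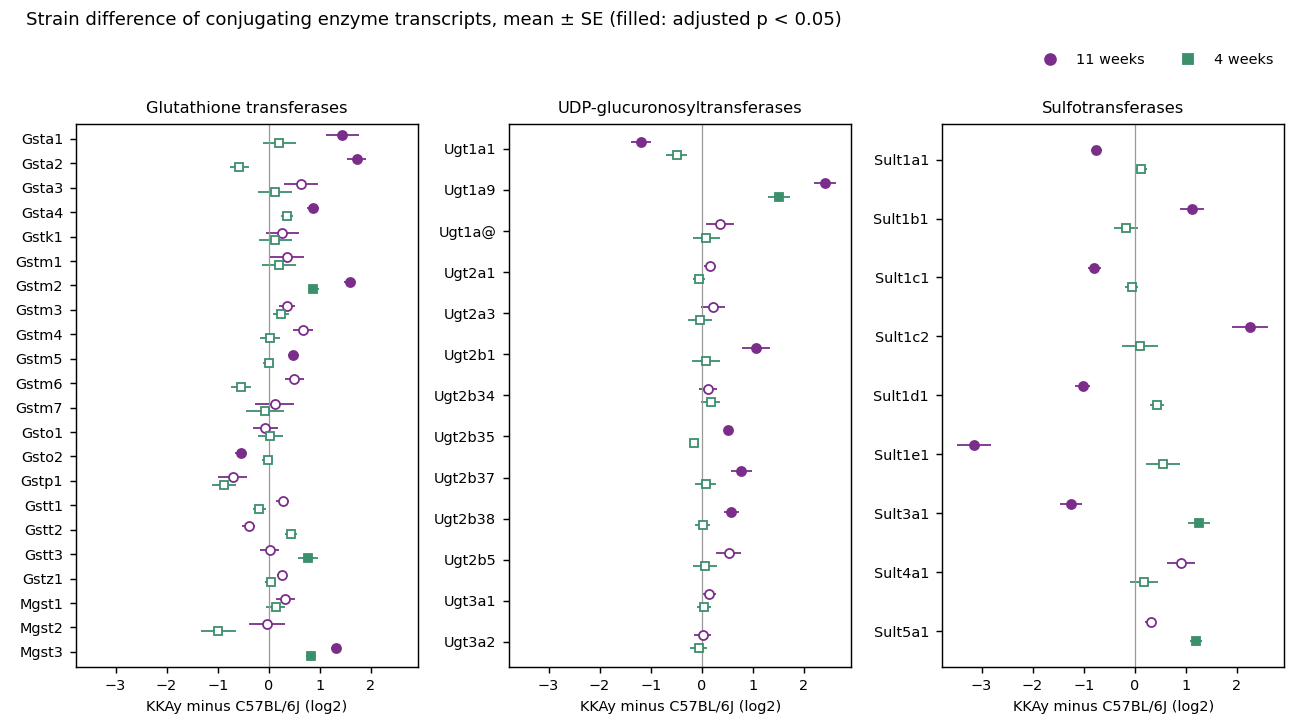
Strain difference (KKAy minus C57BL/6J, log2, mean ± SE, 2 arrays in each group) of the 44 conjugating enzyme genes kept, in 3 panels by family. Circles are 11 weeks, squares 4 weeks, and filled symbols have an adjusted p under 0.05. Sult1e1 lies far to the left at 11 weeks with a difference of -3.15, and Ugt1a9 far to the right at 2.41.

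The widest Ugt difference lay in the Ugt1a locus, where several first exons, each with its own promoter, splice to shared downstream exons and so give enzymes with different substrates. Ugt1a9, which glucuronidates phenols, had 4.26 and 3.86 in KKAy and 1.83 and 1.48 in C57BL/6J livers at 11 weeks. At 4 weeks it had 3.78 and 3.53 in KKAy and 2.29 and 1.97 in C57BL/6J livers. The groups did not overlap at either age. Ugt1a9 was 5.31-fold higher in KKAy at 11 weeks (log2 2.41, SE 0.22, adjusted p = 0.00115) and 2.87-fold higher at 4 weeks (1.52, SE 0.22, adjusted p = 0.00694). Both calls held in all 17 alternatives tried, not all of which could readily change them. Ugt1a9 has 1 kept probe, so the mean of probes is the same value, and the deposited table holds nearly the same signal. Leaving out an array of the other age leaves the difference itself unchanged.

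Ugt1a1, the bilirubin glucuronosyltransferase, went the other way. It read 2.64 and 2.26 in KKAy and 3.78 and 3.50 in C57BL/6J livers at 11 weeks, and 3.28 and 2.96 in KKAy and 3.72 and 3.51 in C57BL/6J livers at 4 weeks. Its fall at 11 weeks was 2.28-fold (log2 -1.19, SE 0.20, adjusted p = 0.00972). Without C57BL/6J replicate 1 of 11 weeks the difference was -1.05 with an adjusted p of 0.0732. At 4 weeks the 2 KKAy arrays were also below both C57BL/6J arrays, with a difference of -0.49 that missed the threshold (SE 0.20, adjusted p = 0.178) and passed with the replicate block (adjusted p = 0.003).

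Probes at different places in the locus gave different results. The probe named Ugt1a9 maps to chr1:89902627-89902686 and that of Ugt1a1 to chr1:90043476-90043535, both on the plus strand of mm8 in the file annotation. A pair of probes carries the name of the whole locus, Ugt1a@, with an accession that now belongs to Ugt1a6b. The brighter of these, at chr1:90050068-90050127, lies farthest downstream, past the Ugt1a1 probe. It had 7.78 and 8.28 in KKAy and 7.53 and 7.82 in C57BL/6J livers at 11 weeks, and 7.32 and 7.83 in KKAy and 7.26 and 7.71 in C57BL/6J livers at 4 weeks. These ranges overlapped at both ages, and the differences of 0.36 and 0.09 did not pass (adjusted p = 0.428 and 0.895). The 11-week difference passed with the replicate block (adjusted p = 0.0111). The other, at chr1:89938426-89938485, read -0.27 and -0.30 in KKAy and 0.40 and 0.19 in C57BL/6J livers at 11 weeks. At 4 weeks it read -0.95 and -0.99 in KKAy and 0.05 and 0.06 in C57BL/6J livers. It was lower in KKAy by limma at both ages (log2 -0.58, adjusted p = 0.0147 at 11 weeks and -1.02, adjusted p = 0.00262 at 4 weeks).

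**Figure D2:**
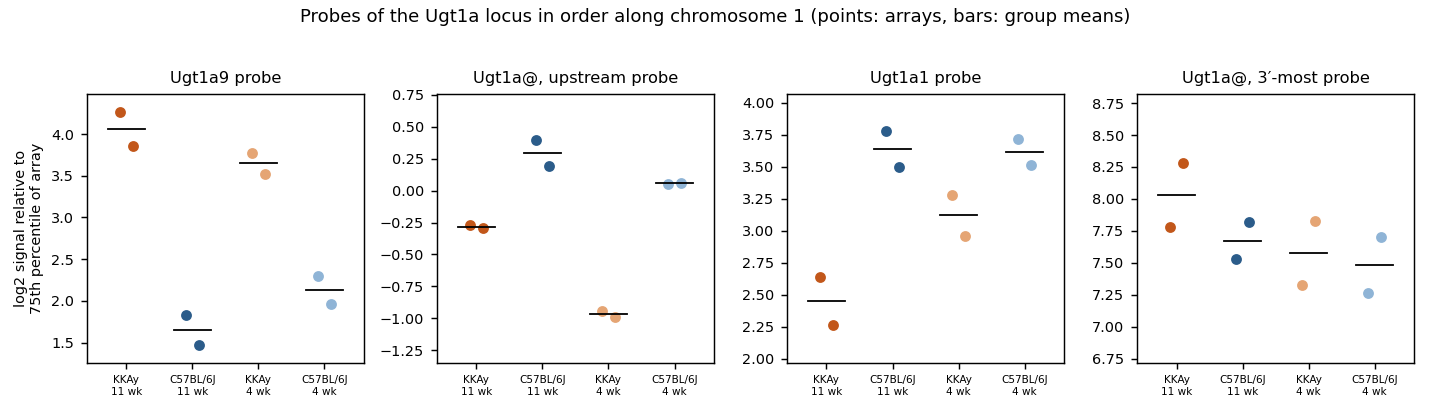
Log2 signal on each of the 8 arrays (points, replicate 1 left) and group means (bars) for the 4 Ugt1a probes, in panels ordered along chromosome 1. The vertical scale differs between panels. Ugt1a9 is higher in KKAy, the upstream Ugt1a@ probe and Ugt1a1 are lower, and the 3′-most probe overlaps between strains.

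The promoters of Ugt1a9 and Ugt1a1 are shown because these first exons of 1 locus moved in opposite directions. Each runs from 250 bases before to 50 bases after the start in RefSeq (GRCm38.p6, chr1:88070529-88070828 and chr1:88211709-88212008, plus strand). Capitals mark matches, on either strand, to the half-site GTTAAT of the liver factor HNF1.
Ugt1a9: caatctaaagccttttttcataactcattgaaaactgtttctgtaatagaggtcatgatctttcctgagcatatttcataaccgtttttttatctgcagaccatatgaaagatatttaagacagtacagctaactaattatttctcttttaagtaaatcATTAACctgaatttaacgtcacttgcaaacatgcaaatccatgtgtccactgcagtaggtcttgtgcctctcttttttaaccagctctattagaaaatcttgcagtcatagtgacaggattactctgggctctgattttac
Ugt1a1: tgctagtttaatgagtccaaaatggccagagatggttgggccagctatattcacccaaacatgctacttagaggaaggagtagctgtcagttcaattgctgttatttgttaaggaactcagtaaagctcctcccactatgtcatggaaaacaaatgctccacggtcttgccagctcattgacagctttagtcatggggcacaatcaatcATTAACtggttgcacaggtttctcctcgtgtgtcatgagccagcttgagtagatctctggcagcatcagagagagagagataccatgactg
Both windows hold 1 match on the minus strand, its first base at -91 in Ugt1a9 and -41 in Ugt1a1, counted from the start site. The half-site occurs in 7.1% of the 32851 mouse promoter windows of this length, and in 4 of 12 Ugt, 2 of 9 Sult and 1 of 21 Gst genes with a window. Neither window holds the core of the antioxidant response element (TGACNNNGC, in 12.4% of windows) or of the xenobiotic response element (GCGTG, in 32.4%), searched on both strands. A match is a description of the letters only.

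Most of the 8 Ugt2 genes kept act on steroids, fatty acids and drugs. At 11 weeks 4 of the 8 were higher in KKAy and 0 lower by limma, beside 9.81% and 11.7% of all genes. None passed at 4 weeks, where 15.4% of all genes did. At an unadjusted p under 0.05 it was also 0 of 8. Ugt2b1 had 6.08 and 5.57 in KKAy and 4.93 and 4.59 in C57BL/6J livers at 11 weeks, against 4.81 and 4.32 in KKAy and 4.69 and 4.28 in C57BL/6J livers at 4 weeks. The strains overlapped at 4 weeks and stood apart at 11 weeks, by 2.09-fold (log2 1.07, SE 0.27, adjusted p = 0.0416). Ugt2b37 showed the same order with 7.26 and 7.60 in KKAy and 6.53 and 6.78 in C57BL/6J livers at 11 weeks. Its 4-week values were 6.37 and 6.69 in KKAy and 6.27 and 6.64 in C57BL/6J livers. The difference at 11 weeks was 0.78 (SE 0.21, adjusted p = 0.0475), and a second Ugt2b37 probe gave 0.61 (adjusted p = 0.1). Ugt2b35 had 5.11 and 5.12 in KKAy and 4.60 and 4.59 in C57BL/6J livers at 11 weeks, and 4.17 and 4.16 in KKAy and 4.29 and 4.32 in C57BL/6J livers at 4 weeks. It was 0.52 higher at 11 weeks (SE 0.09, adjusted p = 0.0112), and Ugt2b38 was 0.58 higher (SE 0.15, adjusted p = 0.0417). These 4 calls depended on single arrays. Without 1 array the Ugt2b1 difference ranged from 0.81 to 1.24 where the call was lost (without either C57BL/6J array of either age or KKAy replicate 1 of 11 weeks). The Ugt2b35 call was lost without either C57BL/6J array or KKAy replicate 2 of 11 weeks (0.51 to 0.52), and the Ugt2b37 and Ugt2b38 calls without any 1 of the 8 arrays (0.60 to 0.95 and 0.46 to 0.69). Ugt2a1, Ugt2a3 and Ugt2b5 (0.17, 0.23 and 0.52) passed at 11 weeks only with the replicate block (adjusted p = 0.0499, 0.0286 and 0.00284). Fitting the 11-week arrays alone ended all 4 calls made without it, quantile normalization ended those of Ugt2b1 and Ugt2b35 (0.95 and 0.40), and normexp ended that of Ugt2b1 (1.05). Of the rest of the family, Ugt3a1 and Ugt3a2 differed between strains by -0.06 to 0.15 and did not pass at either age. In mice Ugt3a1 uses N-acetylglucosamine as its sugar donor.

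In the alpha class of glutathione transferases 3 of 4 genes were higher in KKAy at 11 weeks by limma, beside 9.81% of all genes. None passed at 4 weeks, where 15.4% of all genes did and 2 alpha genes had an unadjusted p under 0.05. This class detoxifies lipid peroxides and their breakdown products. Gsta2 had 4.77 and 5.13 in KKAy and 3.13 and 3.33 in C57BL/6J livers at 11 weeks, but 1.59 and 1.89 in KKAy and 2.19 and 2.44 in C57BL/6J livers at 4 weeks. The strains stood apart in opposite order at the 2 ages. At 11 weeks the gene was 3.30-fold higher in KKAy (log2 1.72, SE 0.19, adjusted p = 0.00223), and at 4 weeks the difference was -0.57 (SE 0.19, adjusted p = 0.108, or 0.00165 with the replicate block).

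Gsta1 had 5.78 and 6.28 in KKAy and 4.38 and 4.80 in C57BL/6J livers at 11 weeks, against 4.06 and 4.62 in KKAy and 3.82 and 4.45 in C57BL/6J livers at 4 weeks. Only the 11-week strains stood apart, by 2.71-fold (log2 1.44, SE 0.32, adjusted p = 0.0275). That call was lost without either C57BL/6J array or KKAy replicate 2 of 11 weeks (1.18 to 1.65). Gsta4, which conjugates the lipid peroxidation product 4-hydroxynonenal, had 2.02 and 2.20 in KKAy and 1.20 and 1.27 in C57BL/6J livers at 11 weeks. At 4 weeks it had 1.02 and 1.18 in KKAy and 0.70 and 0.79 in C57BL/6J livers. Its difference was 0.87 at 11 weeks (SE 0.12, adjusted p = 0.0048) and 0.36 at 4 weeks (SE 0.12, adjusted p = 0.112, or 0.00571 with the replicate block). Gsta3 had a difference of 0.63 at 11 weeks on its brighter probe (SE 0.33, adjusted p = 0.248, or 0.0046 with the replicate block) and of 0.75 on its second (SE 0.19, adjusted p = 0.0383).

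Gsta1 and Gsta2 are near neighbours on chromosome 9 with closely related coding sequences, so each probe may also bind the transcript of the other, which was not tested. Their RefSeq promoters (GRCm38.p6, chr9:78230419-78230718 on the plus and chr9:78347096-78347395 on the minus strand, each written along its gene) are shown because both genes were higher in 11-week KKAy livers. Capitals mark the xenobiotic response element core GCGTG.
Gsta1: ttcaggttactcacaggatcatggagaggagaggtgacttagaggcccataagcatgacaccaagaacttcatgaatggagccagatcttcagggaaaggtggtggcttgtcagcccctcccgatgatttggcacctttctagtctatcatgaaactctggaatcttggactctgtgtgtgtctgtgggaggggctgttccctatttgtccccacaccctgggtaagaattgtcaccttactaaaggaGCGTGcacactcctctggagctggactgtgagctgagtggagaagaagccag
Gsta2: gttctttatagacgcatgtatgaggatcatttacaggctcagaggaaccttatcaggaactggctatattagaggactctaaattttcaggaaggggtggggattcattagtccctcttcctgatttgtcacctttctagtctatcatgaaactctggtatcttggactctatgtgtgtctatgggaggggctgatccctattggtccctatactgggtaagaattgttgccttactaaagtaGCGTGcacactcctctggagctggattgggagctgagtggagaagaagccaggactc
The windows share 232 identical bases in an alignment, 77.3% of their length, against 50% to 56.3% for the other pairs among the 6 promoters shown. Each holds 1 core on the plus strand, with its first base at -2 in Gsta1 and -7 in Gsta2. Neither holds the antioxidant response element core, which 4 of the 21 Gst genes with a window hold, or the HNF1 half-site.

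Gstm2 and Mgst3 were higher in KKAy at both ages. Gstm2, of the mu class that conjugates aromatic electrophiles, had 5.35 and 5.51 in KKAy and 3.79 and 3.89 in C57BL/6J livers at 11 weeks, and 4.76 and 4.93 in KKAy and 3.95 and 3.99 in C57BL/6J livers at 4 weeks. It was 3.01-fold higher in KKAy at 11 weeks (log2 1.59, SE 0.12, adjusted p = 0.000555) and 1.83-fold higher at 4 weeks (0.87, SE 0.12, adjusted p = 0.00527). Mgst3, a microsomal transferase and peroxidase, had 1.07 and 1.1 in KKAy and -0.24 and -0.23 in C57BL/6J livers at 11 weeks. At 4 weeks it had 0.65 and 0.78 in KKAy and -0.12 and -0.11 in C57BL/6J livers. Its difference was 1.32 at 11 weeks (SE 0.10, adjusted p = 0.000603) and 0.83 at 4 weeks (SE 0.10, adjusted p = 0.00364), and a second probe gave 1.1 and 0.78. All 4 of these calls held in all 17 alternatives. Of the other mu genes, all on chromosome 3, Gstm5 was 0.48 higher at 11 weeks (SE 0.10, adjusted p = 0.0236). That call was lost without any 1 array except KKAy replicate 2 of 11 weeks (0.39 to 0.50). Gstm1, Gstm3, Gstm4, Gstm6 and Gstm7 differed by 0.11 to 0.67 at 11 weeks and did not pass, though Gstm3, Gstm4 and Gstm6 did with the replicate block (adjusted p = 0.0168, 0.00103 and 0.00157). At 4 weeks Gstm6 was lower with the block alone (log2 -0.55, adjusted p = 0.00164).

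The other glutathione transferases differed less or by probe. Gstt3, of the theta class, had 4.53 and 4.84 in KKAy and 4.57 and 4.76 in C57BL/6J livers at 11 weeks, which overlapped. At 4 weeks it had 5.06 and 5.41 in KKAy and 4.34 and 4.59 in C57BL/6J livers, a difference of 0.77 (SE 0.19, adjusted p = 0.0445). The call was lost without any 1 of the 4-week arrays or either C57BL/6J array of 11 weeks (0.59 to 0.94). Gsto2, of the omega class, which reduces dehydroascorbate, was 0.54 lower in KKAy at 11 weeks (log2 -0.54, SE 0.12, adjusted p = 0.0227), a call lost without either C57BL/6J array or KKAy replicate 2 of that age (-0.59 to -0.46). Normexp more than halved that value and ended the call (-0.25, adjusted p = 0.206), and spike-in scaling also ended it (-0.40, adjusted p = 0.171). Gstp1, the pi class gene, had a difference of -0.71 at 11 weeks (adjusted p = 0.153, with KKAy replicate 2 left out of the fit because its spots were flagged) and of -0.87 at 4 weeks (adjusted p = 0.0706) on its brighter probe. Its second probe gave 6.90 and 6.54 in KKAy and 8.07 and 8.06 in C57BL/6J livers at 11 weeks, and 5.61 and 5.33 in KKAy and 7.04 and 6.96 in C57BL/6J livers at 4 weeks. By limma that probe passed at both ages, with -1.34 (adjusted p = 0.00324) and -1.53 (adjusted p = 0.00262). Gstp1 was therefore lower in KKAy on both probes and passed on 1 of them. Gstk1, Gstz1, Gsto1, Gstt1, Gstt2, Mgst1 and Mgst2 passed at neither age, with differences between -0.99 and 0.43. The replicate block added calls for Gstk1, Gstz1, Gstt1, Gstt2, Mgst1 and Gstp1 at 11 weeks and for Gstt1, Gstt2, Mgst2 and Gstp1 at 4 weeks.

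The sulfotransferases split in direction. At 11 weeks 2 of the 9 kept were higher in KKAy and 5 lower by limma, beside 9.81% and 11.7% of all genes. At 4 weeks 2 were higher and none lower, beside 6.5% and 8.92% of all genes. None was lower there at an unadjusted p under 0.05 either. Normexp background correction gave 2 higher and 4 lower at 11 weeks. Sult1e1, the estrogen sulfotransferase, had -3.83 and -3.21 in KKAy and -0.58 and -0.17 in C57BL/6J livers at 11 weeks, against -0.54 and -0.03 in KKAy and -1.13 and -0.54 in C57BL/6J livers at 4 weeks. The KKAy livers of 11 weeks lay far below the other 6 arrays. Sult1e1, read by 1 probe, was 8.87-fold lower in KKAy at 11 weeks by limma (log2 -3.15, SE 0.32, adjusted p = 0.00178). The 4-week difference of 0.55 did not pass (SE 0.32, adjusted p = 0.365, or 0.00305 with the replicate block). The fall held in all 17 alternatives, with normexp background correction giving -1.94.

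Sult1d1, which in mice sulfates catecholamines and other small phenols, lies next to Sult1e1 on chromosome 5. It had 4.05 and 4.27 in KKAy and 5.13 and 5.23 in C57BL/6J livers at 11 weeks, and 5.36 and 5.55 in KKAy and 4.91 and 5.13 in C57BL/6J livers at 4 weeks. It was 2.03-fold lower in KKAy at 11 weeks (log2 -1.02, SE 0.14, adjusted p = 0.00544), where the strains stood apart, and 0.44 higher at 4 weeks without passing (SE 0.14, adjusted p = 0.107, or 0.00319 with the replicate block). Without C57BL/6J replicate 2 of 11 weeks the difference was -0.97 with an adjusted p of 0.0501. The RefSeq promoters of Sult1d1 and Sult1e1 (GRCm38.p6, chr5:87568957-87569256 and chr5:87591562-87591861, minus strand, written along the gene) are shown because these neighbours were both lower. Capitals mark, in Sult1d1, the HNF1 half-site GTTAAT and then the xenobiotic response element core on the minus strand.
Sult1d1: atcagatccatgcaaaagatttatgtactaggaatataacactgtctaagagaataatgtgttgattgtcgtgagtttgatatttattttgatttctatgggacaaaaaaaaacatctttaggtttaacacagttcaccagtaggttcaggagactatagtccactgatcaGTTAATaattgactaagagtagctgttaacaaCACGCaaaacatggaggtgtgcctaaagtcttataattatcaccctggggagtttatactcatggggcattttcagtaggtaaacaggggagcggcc
Sult1e1: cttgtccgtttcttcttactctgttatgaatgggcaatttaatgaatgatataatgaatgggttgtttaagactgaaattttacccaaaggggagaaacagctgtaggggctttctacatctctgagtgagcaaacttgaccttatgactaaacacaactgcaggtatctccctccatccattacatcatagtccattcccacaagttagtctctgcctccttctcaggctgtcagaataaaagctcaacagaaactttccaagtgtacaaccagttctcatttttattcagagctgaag
In Sult1d1 the first bases of these matches lie at -79 and -47. The Sult1e1 window holds none of the 3 motifs searched, which says only that those letters are not in it. The windows had 158 identical bases in an alignment, or 52.7%, within the range of the unrelated pairs.

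The third sulfotransferase of that cluster, Sult1b1, which acts on thyroid hormones and phenols, was higher. It had 3.13 and 3.57 in KKAy and 2.07 and 2.39 in C57BL/6J livers at 11 weeks, and 1.96 and 2.31 in KKAy and 2.12 and 2.50 in C57BL/6J livers at 4 weeks. The difference at 11 weeks was 1.12 (SE 0.23, adjusted p = 0.0213), and 1.20 on a second probe (adjusted p = 0.00715). The first call was lost without either C57BL/6J array or KKAy replicate 2 of 11 weeks (0.91 to 1.29). Along chr5:87965089-88650782 (mm8, both strands) the cluster thus ran from 8 Ugt2 genes with differences of 0.12 to 1.07 at 11 weeks, through Sult1b1, to Sult1d1 and Sult1e1 on the other side of 0. At 4 weeks the 11 genes differed by -0.18 to 0.55 and none passed by limma, 1 at an unadjusted p under 0.05. Sult1b1, Sult1d1 and Sult1e1 passed there with the replicate block (adjusted p = 0.0454, 0.00319 and 0.00305).

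**Figure D3:**
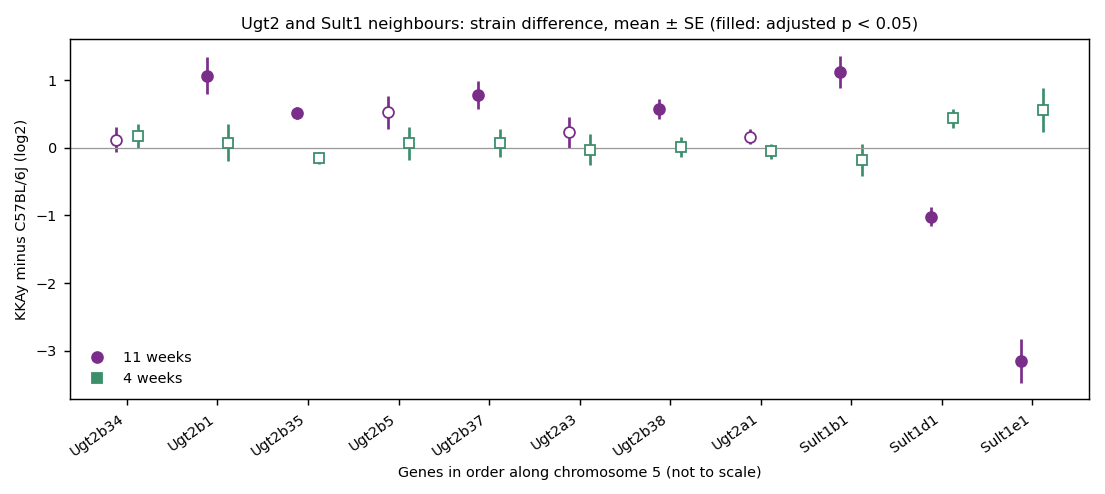
Strain difference (KKAy minus C57BL/6J, log2, mean ± SE, 2 arrays in each group) of the 11 members on chromosome 5, in gene order and not to scale. Circles are 11 weeks and squares 4 weeks, and filled symbols have an adjusted p under 0.05. Sult1d1 and Sult1e1, at the right end, are the 2 genes below 0 at 11 weeks.

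Among the sulfotransferases elsewhere in the genome, Sult1c2 had 0.74 and 1.48 in KKAy and -1.37 and -0.93 in C57BL/6J livers at 11 weeks, and -0.45 and 0.19 in KKAy and -0.49 and 0.03 in C57BL/6J livers at 4 weeks. It was 4.79-fold higher in KKAy at 11 weeks (log2 2.26, SE 0.36, adjusted p = 0.00804), and the strains overlapped at 4 weeks. Without C57BL/6J replicate 1 of 11 weeks it was 2.04 higher with an adjusted p of 0.0626. Its neighbour on chromosome 17, Sult1c1, was lower at 11 weeks (log2 -0.79, SE 0.13, adjusted p = 0.00908), as was Sult1a1, the main phenol sulfotransferase (-0.75, SE 0.11, adjusted p = 0.0067). Both of these calls were lost without either C57BL/6J array of 11 weeks (-0.85 to -0.73). Sult5a1, whose substrate is not known, had 1.35 and 1.14 in KKAy and 0.95 and 0.92 in C57BL/6J livers at 11 weeks, and 1.89 and 1.85 in KKAy and 0.72 and 0.62 in C57BL/6J livers at 4 weeks. Sult4a1 was 0.91 higher at 11 weeks with the block alone (adjusted p = 0.0644 without it, 0.00479 with it). The strain difference of Sult5a1 passed at 4 weeks (1.20, SE 0.11, adjusted p = 0.00169) and in all 17 alternatives, while that of 0.31 at 11 weeks did not pass (adjusted p = 0.108, or 0.0119 with the replicate block).

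Sult3a1, which sulfates amines, changed with age more than any other member kept. It had -1.02 and -0.67 in KKAy and -2.17 and -2.02 in C57BL/6J livers at 4 weeks, where KKAy was 1.25 higher (SE 0.22, adjusted p = 0.0142). At 11 weeks it was not well above background on any of the 4 arrays, with values of -7.65 and -7.40 in KKAy and -6.53 and -6.02 in C57BL/6J livers. Set against the lowest signal well above background on each array of the dimmer group, it was at least 20.2-fold lower at 11 than at 4 weeks in KKAy and at least 12.7-fold lower in C57BL/6J. With normexp background correction, which adds an offset, the fitted folds were 6.00 and 3.03. Sult3a1 was kept only through its 4-week groups, so a fall with age was built into its selection, and no p-value is given for it. It counts among the 5 lower sulfotransferases at 11 weeks, but no fold is given there because both groups were dim. The 4-week call was lost without either C57BL/6J array or KKAy replicate 2 of that age (1.08 to 1.33).

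**Figure D4:**
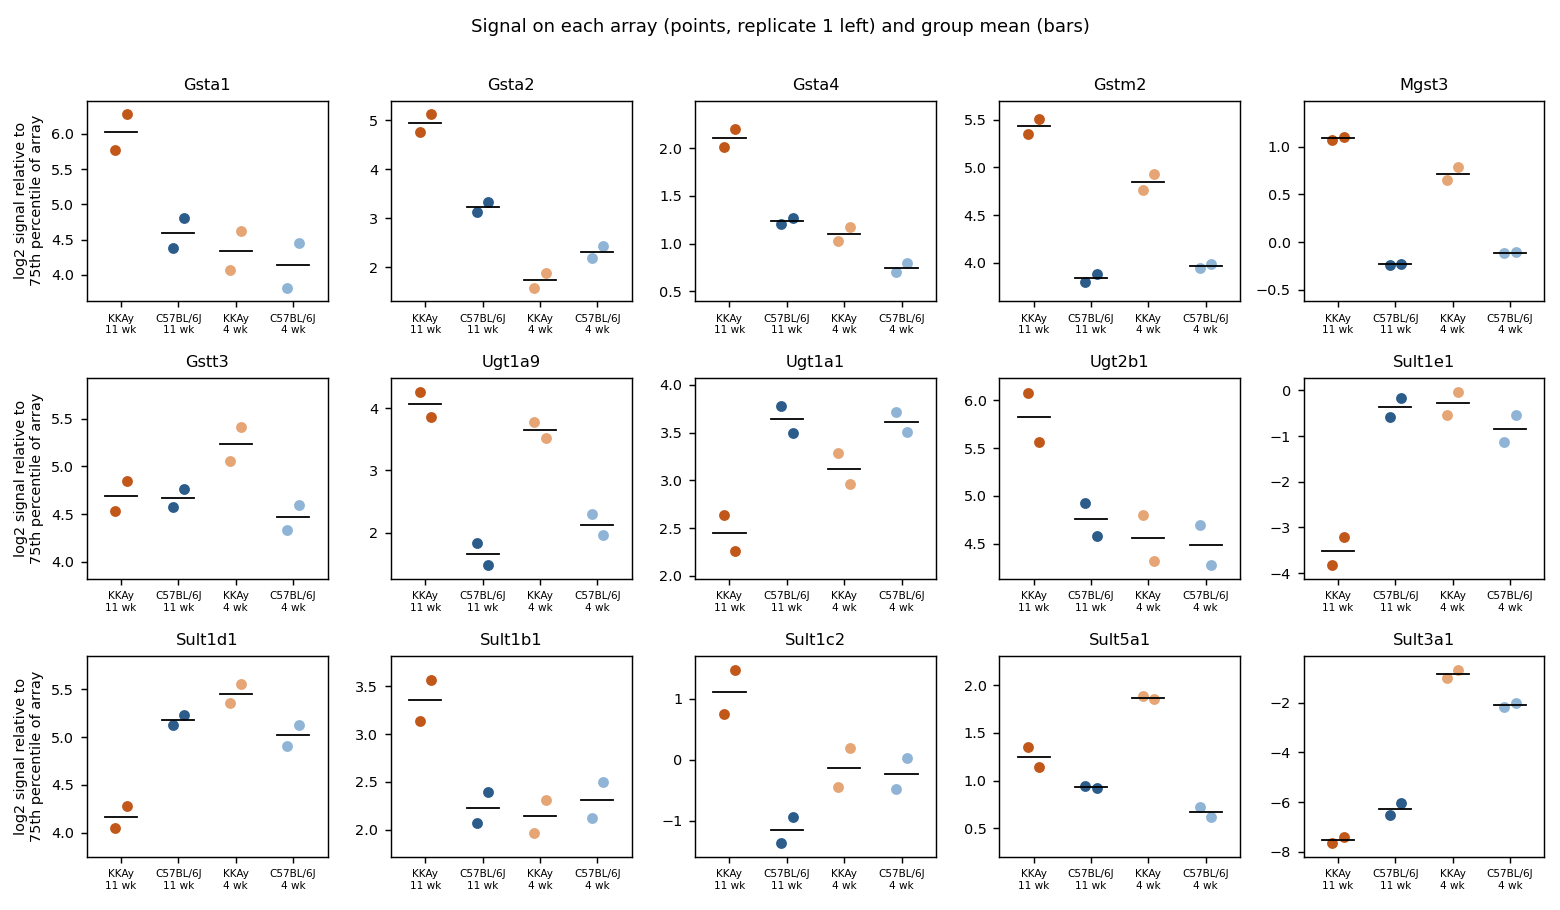
Log2 signal relative to the 75th percentile of the array, on each of the 8 arrays (points, replicate 1 left) with group means (bars), for 15 members in panels of their own scale. Values can be compared within a panel, not between panels. In Sult1e1 the 11-week KKAy arrays lie below all others, and in Gsta1 and Gsta2 above all others.

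The age comparison asks what changed between 4 and 11 weeks in each strain. In KKAy 24 of 44 members passed, 16 higher and 8 lower at 11 weeks, or 54.5% where 18.5% of all genes passed (8% higher, 10.5% lower). In C57BL/6J 2 of 44 passed, or 4.55% where 8.14% of all genes did (1.99% higher, 6.15% lower): Gsta2 higher and Sult3a1 lower. Without Sult3a1 the counts were 23 of 43 in KKAy and 1 of 43 in C57BL/6J. With the replicate block 41 of 44 passed in KKAy (31 higher, 10 lower) where 53.9% of all genes did, and 21 in C57BL/6J (17 higher, 4 lower) where 35.6% did. The members' median difference was 0.45 in KKAy and 0.19 in C57BL/6J, beside 0.03 and 0.07 for all genes. Spike-in scaling shifted the median of all genes to -0.19 in KKAy, where 8 members were then higher and 10 lower, so the balance of directions there depended on the scaling. Without 1 array the 24 calls dropped to 14 without either C57BL/6J array of 11 weeks, to 8 and 10 without KKAy replicates 1 and 2 of 4 weeks, and to 13 and 12 without those of 11 weeks. They dropped to 9 with no filter on dim probes and to 6 in a fit of the KKAy arrays alone. Several markers of other cells were lower at 11 than at 4 weeks, in KKAy for 7 of 11 Kupffer cell and macrophage, 6 of 9 stellate cell and fibroblast, 4 of 8 endothelial and 3 of 8 lymphocyte genes, and in C57BL/6J for 9, 3, 1 and 4 of them. Of all genes, 10.5% were lower in KKAy and 6.15% in C57BL/6J. Erythroid markers went both ways. In KKAy 3 of 4 were lower and 1 higher (Alas2, 1.86), and in C57BL/6J 2 were lower and 1 higher (Tfrc, 0.59). Of 6 cholangiocyte markers 1 was higher in C57BL/6J (Sox9, 0.73) and 0 passed in KKAy. Adipocyte markers were higher at 11 weeks for 1 of 3 in KKAy and 3 of 3 in C57BL/6J livers. The part of all these markers in the age results was not tested. Cfd, an adipocyte protease, was 5.39 higher in KKAy and 5.11 in C57BL/6J livers. Summed over the 3 of 5 adipocyte markers above background, the level was -0.76 to -0.39 at 11 and -3.89 to -3.61 at 4 weeks in KKAy. In C57BL/6J it was -0.08 to 0.17 at 11 and -4.30 to -4.08 at 4 weeks.

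**Figure D5:**
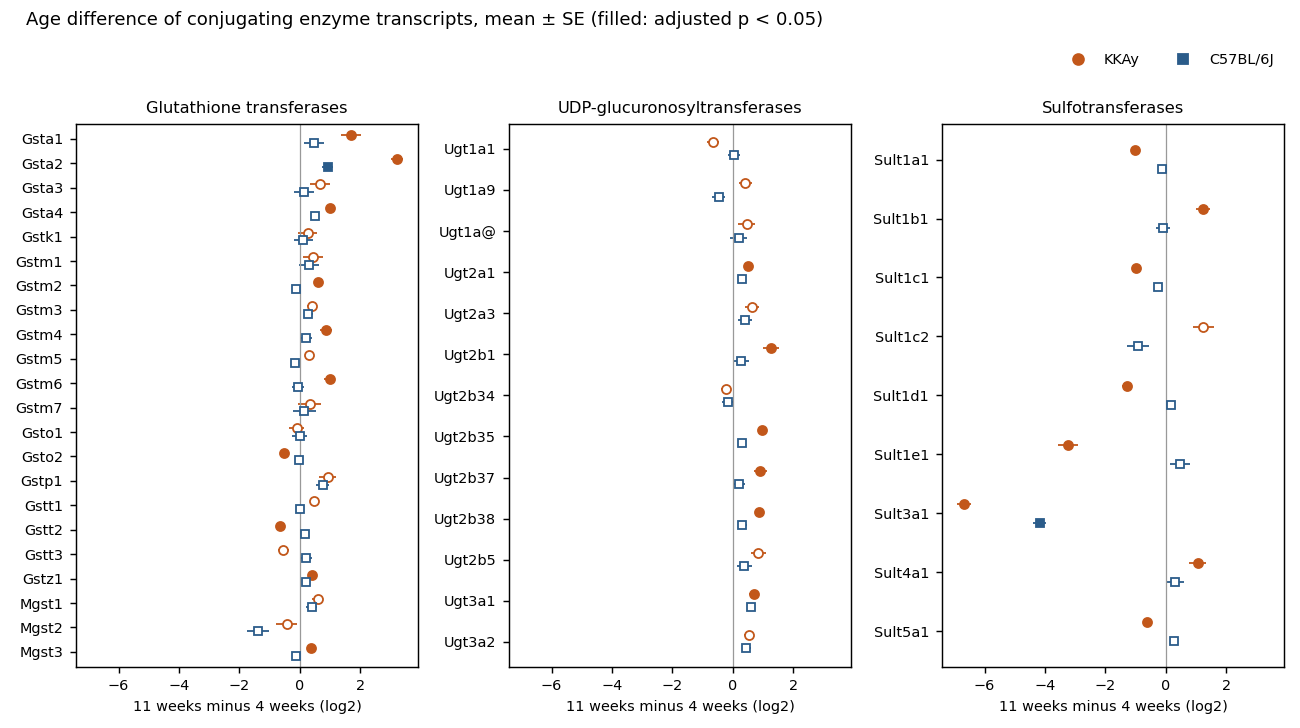
Age difference (11 weeks minus 4 weeks, log2, mean ± SE, 2 arrays in each group) of the 44 members by family, with circles for KKAy, squares for C57BL/6J and filled symbols for an adjusted p under 0.05. Most filled symbols are KKAy. For Sult3a1, at the far left, the 11-week signal was not above background, so its drawn value is no measured fold.

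In KKAy 8 of 22 glutathione transferases rose with age and 2 fell, beside 8% and 10.5% of all genes. Spike-in scaling gave 3 in each direction. Among those that rose without it were 3 of 4 alpha genes. Gsta2 was 9.29-fold higher at 11 than at 4 weeks (log2 3.22, SE 0.19, adjusted p = 0.000432), Gsta1 3.23-fold (1.69, SE 0.32, adjusted p = 0.0194) and Gsta4 2.01-fold (1.01, SE 0.12, adjusted p = 0.00396). The Gsta1 call was lost without KKAy replicate 1 of 4 weeks or replicate 2 of 11 weeks (1.41 and 1.44), and the Gsta4 call missed the threshold when the KKAy arrays were fitted alone (adjusted p = 0.0584). In C57BL/6J Gsta2 was 1.89-fold higher at 11 weeks (0.92, SE 0.19, adjusted p = 0.04), a call lost without any 1 of its own 4 arrays or either 4-week KKAy array (0.79 to 1.05). Of the 7 mu genes Gstm2, Gstm4 and Gstm6 were higher at 11 weeks in KKAy, by 0.58, 0.86 and 0.98. Each of those calls was lost without several single arrays, where the differences ranged from 0.50 to 1.11. Gstz1, the maleylacetoacetate isomerase of tyrosine breakdown, and Mgst3 were higher by 0.41 and 0.37, and Gstt2 and Gsto2 were lower (-0.67 and -0.53). The Gstz1, Mgst3 and Gsto2 calls were lost without any 1 of the 8 arrays (adjusted p = 0.0537 to 0.224), and the Gstt2 call without any 1 of the 4 KKAy arrays (-0.76 to -0.58). Under normexp the Gsto2 difference was -0.25 (adjusted p = 0.217). Under spike-in scaling Gstm2, Gstz1 and Mgst3 had 0.37, 0.20 and 0.16 and did not pass, nor did Gstm4 and Gstm6 (0.65 and 0.77).

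Of the 13 Ugt genes in KKAy, 6 were higher and 0 lower at 11 than at 4 weeks, beside 8% and 10.5% of all genes. Spike-in scaling gave 3 higher and 1 lower, and the replicate block 11 higher and 1 lower. At an unadjusted p under 0.05 in limma, 9 were higher and 1 lower. The mean of Ugt1a1 in KKAy was 2.45 at 11 and 3.12 at 4 weeks, a fall that did not pass. Ugt2b1 was 2.40-fold higher at 11 weeks (log2 1.26, SE 0.27, adjusted p = 0.0283), Ugt2b35 1.93-fold (0.95, SE 0.09, adjusted p = 0.00206), Ugt2b37 1.87-fold (0.90, SE 0.21, adjusted p = 0.0336) and Ugt2b38 1.84-fold (0.88, SE 0.15, adjusted p = 0.0129). Ugt2a1 and Ugt3a1 were higher by 0.51 and 0.68. Ugt2b35 kept its call in all 17 alternatives. The Ugt2b1 call was lost without either C57BL/6J array of 11 weeks, either KKAy array of 4 weeks or KKAy replicate 1 of 11 weeks (1.0 to 1.5), and the Ugt3a1 call without the same arrays (0.56 to 0.78). Ugt2b37 lost its call without either 11-week C57BL/6J array or any 1 KKAy array (0.73 to 1.08), Ugt2b38 without KKAy replicate 1 of 4 weeks or 2 of 11 weeks (0.76 and 0.79), and Ugt2a1 without any 1 array (0.46 to 0.56). Under spike-in scaling Ugt2a1, Ugt2b37 and Ugt3a1 had 0.29, 0.69 and 0.47 and did not pass. In C57BL/6J none of the 13 passed in limma, where 8.14% of all genes did. At an unadjusted p under 0.05 there were 4, and the 13 differed by -0.48 to 0.59. Blocking by replicate number gave 9 higher and 1 lower.

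Sulfotransferases in KKAy fell with age in 6 of 9 cases, Sult3a1 among them, and rose in 2, beside 10.5% and 8% of all genes. Spike-in scaling gave the same counts of sulfotransferases. Sult1e1 was 9.42-fold lower at 11 weeks (log2 -3.24, SE 0.32, adjusted p = 0.00246), or by -2.01 under normexp, and Sult1d1 2.46-fold lower (-1.30, SE 0.14, adjusted p = 0.00328). Sult1a1 and Sult1c1 were lower by about the same amount (-1.01 and -1.0), and Sult5a1 by less (-0.63). Sult1b1 was 1.21 higher (SE 0.23, adjusted p = 0.02) and Sult4a1, a form known mainly from brain, 1.05 higher (SE 0.27, adjusted p = 0.0469). The Sult1a1, Sult1d1 and Sult1e1 calls held in all 17 alternatives. Those of Sult1b1 and Sult5a1 were lost without either KKAy array of 4 weeks or replicate 2 of 11 weeks (1.0 to 1.39 and -0.64 to -0.52), and that of Sult4a1 without any 1 KKAy array or either C57BL/6J array of 11 weeks (0.83 to 1.26).

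Whether the strain difference itself changed with age was tested by the interaction, the strain difference at 11 weeks minus that at 4 weeks. In this test 6 of 44 members passed, or 13.6% where 3.82% of all genes did (2.02% above 0, 1.81% below). Without Sult3a1 the count was 5 of 43. Gsta2 was above 0 (2.30, SE 0.27, adjusted p = 0.0131). Sult1e1 (-3.70, SE 0.46, adjusted p = 0.0158), Sult1d1 (-1.46, SE 0.20, adjusted p = 0.0213), Sult5a1 (-0.89, SE 0.16, adjusted p = 0.0426), Sult1a1 (-0.88, SE 0.16, adjusted p = 0.0447) and Sult3a1 were below 0. The value of -2.50 for Sult3a1 rests on 2 groups below background and is no measured size, so no p-value is given for it. Under normexp it was -0.99 (adjusted p = 0.192). That of Sult1e1 was -2.41 under normexp. No Ugt gene passed (0 of 13 in limma, 5 at an unadjusted p under 0.05). For Ugt1a9 the interaction was 0.89 (adjusted p = 0.205) and for Ugt2b1 0.99 (adjusted p = 0.259). With the replicate block both passed (adjusted p = 0.003 and 0.00289), 6 Ugt genes were above and 1 below 0, and 29 of 44 members passed (19 above 0, 10 below) where 31.3% of all genes did. Without the block, 1 Ugt gene was above 0 with a filter on all 8 arrays, and 1 with the mean of probes. Whether a Ugt strain difference was called as changing with age thus depended on the block, the filter and the probes used. None of the 6 calls held under every single-array omission. The number of calls was 0 to 3 when 1 array was left out: 0 without C57BL/6J replicate 1 of 4 weeks or either C57BL/6J array of 11 weeks, 1 to 3 otherwise. With 1 array left out, where the call was lost, the values were 2.15 to 2.42 for Gsta2 (any C57BL/6J array or KKAy replicate 1 of 4 weeks) and -3.91 to -3.41 for Sult1e1 (C57BL/6J replicate 1 of 4 weeks, either of 11 weeks, or KKAy replicate 2 of 4 weeks). The Sult1d1, Sult5a1 and Sult1a1 calls were lost without any 1 of the 8 arrays, with -1.57 to -1.34, -0.99 to -0.79 and -0.99 to -0.76.

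Genes that supply the cofactors of conjugation gave called shares of 44% at 11 weeks, 24% at 4 weeks and 32% for age in KKAy, beside 21.5%, 15.4% and 18.5% of all genes. Of 25 tested, 7 were higher and 4 lower in KKAy at 11 weeks and 2 higher and 4 lower at 4 weeks, with 7 higher and 1 lower with age in KKAy and 1 higher in C57BL/6J. Their median was 0.24 at 11 and -0.05 at 4 weeks, beside the -0.01 and 0.02 of all genes. Gclc, the catalytic subunit of the first enzyme of glutathione synthesis, was 1.13 higher in KKAy at 11 weeks (SE 0.10, adjusted p = 0.00124). Chac1, which breaks down glutathione, was 2.29 higher (SE 0.19, adjusted p = 0.000929). Ugdh, which makes UDP-glucuronate, rose with age in KKAy by 1.62 (SE 0.09, adjusted p = 0.000431) and in C57BL/6J by 0.75 (SE 0.09, adjusted p = 0.00732). Papss2, a synthase of the sulfate donor, was lower in KKAy at 11 weeks (log2 -1.01, SE 0.14, adjusted p = 0.00588). Among 20 genes of conjugate hydrolysis and export, 7 were higher and 4 lower at 11 weeks and 4 higher and 4 lower at 4 weeks, with medians of -0.02 and 0.11 (55% and 40% called). The efflux pump Abcc4 was 1.79 higher at 11 weeks (SE 0.23, adjusted p = 0.00428), and the uptake carriers Slco1a4 and Slco1a1 were lower and higher (-3.21, SE 0.30, adjusted p = 0.00133 and 1.72, SE 0.09, adjusted p = 0.000208).

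Regulators gave 6 higher and 3 lower of 31 at 11 weeks and 8 higher and 4 lower at 4 weeks, with medians of 0.04 and 0.16. That is 29% and 38.7% called, beside 21.5% and 15.4% of all genes. Among 16 target genes commonly used to read such regulators, 3 were higher and 4 lower at 11 weeks and 2 higher and 1 lower at 4 weeks (medians 0.13 and 0.18; 43.8% and 18.8% called). Cyp2b10, a target of CAR, was lower in KKAy at 11 weeks (log2 -3.72, SE 0.28, adjusted p = 0.000601). Some members are known to be sex-biased in mouse liver, such as Gstp1 toward males and Sult3a1 toward females. Outside the 3 families, female-biased liver genes were lower in KKAy at 11 weeks for 7 of 13 and higher for 1 (median -1.14), but lower for 2 and higher for 5 at 4 weeks (median 0.70), and lower with age for 9 of 13 in KKAy and 6 of 13 in C57BL/6J. Male-biased genes were higher in KKAy at 11 weeks for 3 of 8 and lower for 1 (median 0.27). At 4 weeks 1 was higher and 3 were lower (median -0.17). With age 7 of 8 were higher in KKAy and 2 of 8 in C57BL/6J. Shares called for strain at 11 and 4 weeks and age in KKAy and C57BL/6J were 61.5%, 53.8%, 69.2% and 46.2% of female-biased genes. In the same order the male-biased genes had 50%, 50%, 87.5% and 25%, and all genes 21.5%, 15.4%, 18.5% and 8.14%. At 4 weeks the female-biased A1bg and Hao2 were higher in KKAy (2.38, adjusted p = 0.000336 and 2.25, adjusted p = 0.00341), and the male-biased Elovl3 was lower (log2 -2.26, adjusted p = 0.00204). Other genes of these lists went against that direction at 4 weeks. The female-biased Cyp17a1 and Cux2 were lower (log2 -2.82, adjusted p = 0.000642 and -1.63, adjusted p = 0.00783). The male-biased Slco1a1 was higher (0.63, adjusted p = 0.00701). These lists overlap with the export list in Slco1a1 and with the regulators in Cux2, and with the sex of the mice not given their part in the enzyme differences was not tested.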

How the data were processed

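Total RNA from 8 liver samples was labelled with Cy3 and hybridised to 1-colour mouse arrays, 2 per group. Per the file headers, the scanner files came from Agilent Feature Extraction 9.5.1.1 and give probe positions on mm8; the deposited processed signal is an intensity, background-corrected by that program. The series value table deposited by the authors holds log2 values, 99.5% of them within 0.001 of log2 signal minus a constant for each array; it was used as an alternative only.

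Here the log2 of the processed signal minus the 75th percentile of each array was taken. Control and outlier spots were left out and spots of a probe averaged. A probe was kept if both replicates of some group were well above background, and the brightest kept probe stood for a gene. All 17050 genes and 8 arrays were fitted with limma 3.58.1 (R 4.3.3, group means, no covariate), with Benjamini-Hochberg adjustment across all genes and a threshold of 0.05. Gene names were updated through RefSeq by accession (24375 probes), symbol (6301) or older symbol (2426), and 8072 probes kept the file's name. Promoter windows came from RefSeq GRCm38.p6, which held 42 of the 47 members.

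Every member could be named. Values on all 8 arrays are given for up to 3 members per family and comparison with the largest called change and a signal above background in the higher group. Outside the families up to 4 genes per list and comparison could be named. Other members whose array values are printed, such as the locus and second probes, were chosen after their values were seen. The members and lists were chosen with earlier results of these data known. The number of arrays limits the precision. The alternatives were quantile and spike-in scaling, normexp background correction (offset 50), no filter or a filter on all 8 arrays, the mean of probes, a second probe, the deposited table, the 2 groups alone, a replicate block and leaving out each array. Some of them could hardly end a call. The deposited table holds nearly the same values, and for a gene with 1 kept probe the mean of probes is the same. A count of alternatives that kept a call is thus no count of independent tests. Arrays with the same replicate number deviated together (r = 0.53 to 0.68 across genes over 6 pairs of groups), which pairs them by the data alone, since the labels do not say what a number shares. The fit was also run on simulated data with independent noise on each array, so that run does not cover arrays that deviate together.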

Additional observations from a re-analysis of the deposited data

Results flagged for a closer look

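The strain difference at 11 weeks differed from that at 4 weeks, by the interaction term of the limma fit, for 6 of 44 members. That is 13.6%, where 3.82% of all genes passed. Each of these calls was lost on leaving out some single array, and also with no filter on dim probes. The difference of differences was 2.30 for Gsta2 (adjusted p = 0.0131), with KKAy above C57BL/6J at 11 weeks and below it at 4 weeks. It was -3.70 for Sult1e1 (adjusted p = 0.0158) and -1.46 for Sult1d1 (adjusted p = 0.0213), with KKAy below C57BL/6J at 11 weeks and above it at 4 weeks. Sult1a1 had -0.88 (adjusted p = 0.0447), with KKAy below C57BL/6J at 11 weeks and differing by 0.12 at 4 weeks. Sult5a1 had -0.89 (adjusted p = 0.0426), with KKAy above C57BL/6J by more at 4 weeks. Sult3a1 had -2.50, which is no measured size because neither 11-week group was well above background. Under normexp the Sult3a1 value was -0.99 and did not pass. Kept only through its 4-week groups, Sult3a1 is given no p-value here, and without it 5 of 43 members passed. Age and slide cannot be told apart.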

How the results depend on the processing

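Over all alternatives but the second probe, the calls of members were recomputed 975 times: 700 were kept and 275 lost, 186 of those on leaving out 1 array, and 1 value changed sign. That was Sult3a1, dim in both groups at 11 weeks, whose strain difference was 0.07 under normexp. Counts of genes called outside 1.5 times those given, for strain at 11 and at 4 weeks, age in KKAy and in C57BL/6J, and the interaction, were as follows. Quantile normalization called 10 members for strain at 4 weeks, and a filter on all 8 arrays 1 for age in C57BL/6J. Spike-in scaling called 416 genes for the interaction, and higher calls made up 60.7% of all at 11 weeks (45.6% with the 75th percentile), 75.8% (42.1%) at 4 weeks, 19.4% (43.2%) for age in KKAy and 36.1% (52.8%) for the interaction. Normexp called 2352 at 11 weeks, 1886 and 659 for age in KKAy and C57BL/6J, and 324 for the interaction. With no filter, 2116 genes and 12 members were called at 11 weeks, 1512 genes at 4 weeks, 1458 and 9 for age in KKAy, 682 and 1 for age in C57BL/6J, and 142 and 0 for the interaction. The arrays of 2 groups alone, with fewer samples, gave 2091 genes at 11 weeks, 1396 at 4 weeks, and 739 genes and 6 members for age in KKAy.

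With the replicate block, 9402 genes and 36 members were called at 11 weeks, 7509 and 17 at 4 weeks, 9190 and 41 for age in KKAy, 6069 and 21 for age in C57BL/6J, and 5336 and 29 for the interaction. It ended no call. Leaving out 1 array gave 1478 to 3058 genes and 8 to 17 members at 11 weeks, 1307 to 2577 and 4 to 6 at 4 weeks, 1315 to 2376 and 8 to 19 for age in KKAy, 432 to 1273 and 1 to 2 for age in C57BL/6J, and 58 to 287 and 0 to 3 for the interaction. A slide block was not run: each slide holds 1 age, so strain was already compared within slides. The causes were not tested. Signal over background limits Sult3a1 at 11 weeks and the 3 members not kept.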
